A study of Homo sapiens with 8 samples.

Results

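The small open reading frames (smORFs) described here lie in genes that carry a LINC symbol, given to long intergenic non-coding RNAs. A smORF was taken when the deposited annotation gave its host gene a name made of LINC and digits, leaving out LINC00649, LINC00239 and LINC02732. This selected 745 of 24199 smORFs, which carried 170 LINC symbols. The rule reads host gene names and no counts. Of 167 host genes, counted by the first symbol, 165 are typed as lncRNA in GENCODE release 44 and 2 as pseudogenes, LINC00674 and LINC02210, and 26 overlap the span of a protein-coding gene on either strand. The counts came from ribosome profiling (Ribo-Seq) of Caco-2, a cell line established from a human colon adenocarcinoma, which becomes enterocyte-like when kept past confluence. The 8 libraries fell into 4 groups of 2: undifferentiated cells, differentiated control cells without micelles, differentiated cells exposed to micelles of the bile salt taurocholate without lipid, and differentiated cells exposed to lipid micelles holding oleic acid, cholesterol and bovine serum albumin. All 4 groups are the same tumour line, and the labels do not say whether the replicates were separate cultures, so the p-values measure only the spread between these libraries.

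LINC symbols are in the main assigned to transcripts without a long conserved coding frame that lie between protein-coding genes. Such RNAs can act in the nucleus on chromatin or in the cytoplasm as scaffolds, and some are bound by ribosomes and translated into microproteins. Ribo-Seq sequences the fragments that ribosomes shield from nuclease, and a 3-base periodicity of these fragments is the sign of translation that the RibORF score reads. A footprint count depends on both the amount of an RNA and the ribosomes on it, and these cannot be told apart here.

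The sequences that carry the results are given first, each as the deposited spliced reading frame without its stop codon, 5′ to 3′, with the first codon in capitals. The 4 smORFs below rose on differentiation. On hg38 they lay at chr11:67886615-67888293 (+, 2 exons), chr2:74918220-74918411 (+, 1 exon), chr3:153604695-153672195 (-, 2 exons) and chr5:117455280-117471915 (+, 2 exons).
LINC02754 IEC_08214: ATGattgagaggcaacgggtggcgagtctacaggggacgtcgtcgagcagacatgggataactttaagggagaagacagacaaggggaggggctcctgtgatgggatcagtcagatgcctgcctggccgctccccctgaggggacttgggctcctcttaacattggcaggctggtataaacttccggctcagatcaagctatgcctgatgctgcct
LINC01291 IEC_06093: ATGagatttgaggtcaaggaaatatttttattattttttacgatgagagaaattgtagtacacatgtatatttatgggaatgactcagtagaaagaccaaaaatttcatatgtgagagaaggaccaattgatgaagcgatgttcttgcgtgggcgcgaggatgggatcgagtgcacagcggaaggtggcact
LINC02006 IEC_20188: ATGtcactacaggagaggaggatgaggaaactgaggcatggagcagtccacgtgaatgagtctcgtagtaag
LINC00992 IEC_07957: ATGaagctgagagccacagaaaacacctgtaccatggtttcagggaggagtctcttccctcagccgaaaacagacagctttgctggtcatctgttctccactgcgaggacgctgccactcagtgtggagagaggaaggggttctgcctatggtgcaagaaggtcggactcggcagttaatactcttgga

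The next 4 smORFs fell on differentiation, and the last pair of them are listed without an ATG. They lay at chr6:169798844-169798966 (-, 1 exon), chr6:37507383-37507538 (+, 1 exon), chr12:93003859-93006149 (+, 2 exons) and chr1:112849822-112850007 (+, 1 exon).
LINC00242 IEC_23334: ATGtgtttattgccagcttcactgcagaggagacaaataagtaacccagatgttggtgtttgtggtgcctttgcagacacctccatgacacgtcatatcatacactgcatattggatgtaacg
LINC02520 IEC_10137: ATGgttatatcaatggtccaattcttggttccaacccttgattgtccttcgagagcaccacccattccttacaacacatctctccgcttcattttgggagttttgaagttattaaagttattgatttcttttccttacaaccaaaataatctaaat
LINC02413 IEC_09499: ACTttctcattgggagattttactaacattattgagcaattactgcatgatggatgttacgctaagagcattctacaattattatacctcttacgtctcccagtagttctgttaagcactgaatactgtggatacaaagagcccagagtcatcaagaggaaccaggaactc
LINC01357 IEC_11816: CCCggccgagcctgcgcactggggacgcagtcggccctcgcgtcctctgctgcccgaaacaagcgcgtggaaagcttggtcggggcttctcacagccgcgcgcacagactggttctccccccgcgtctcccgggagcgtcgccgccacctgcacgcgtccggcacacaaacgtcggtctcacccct

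The last 4 are a smORF of LINC00467, an RNA described to encode a mitochondrial microprotein, the densest smORF per base, and the smORFs with the smallest p-values for lipid micelles against control in each direction. They lay at chr1:211391640-211426219 (+, 4 exons), chr18:5238133-5238156 (+, 1 exon), chr18:6928945-6929800 (-, 2 exons) and chr10:53022883-53022936 (-, 1 exon).
LINC00467 IEC_05624: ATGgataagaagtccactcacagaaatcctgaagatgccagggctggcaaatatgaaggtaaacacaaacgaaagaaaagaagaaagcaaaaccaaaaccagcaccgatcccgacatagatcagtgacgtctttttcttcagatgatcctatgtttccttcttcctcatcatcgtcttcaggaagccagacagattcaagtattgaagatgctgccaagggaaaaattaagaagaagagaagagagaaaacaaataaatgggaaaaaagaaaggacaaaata
LINC00667 IEC_10320: ATGgacgcgttggctgtcatgatg
LINC00668 IEC_22298: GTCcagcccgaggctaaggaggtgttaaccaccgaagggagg
LINC02672 IEC_23453: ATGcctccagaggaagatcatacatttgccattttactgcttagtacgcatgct

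The LINC smORFs were short, often spliced and mostly without a sign of a conserved frame. Their length ran from 6 to 149 amino acids with a median of 44, against a median of 40 in the 4673 other smORFs of the non-coding location class and 31 over all 24199. An ATG opened 481 of the 745 (64.6%, against 62.4% and 43.4%), a codon 1 base from ATG opened 37, and 227 were listed with another codon. Of the 481 with ATG, 283 had a purine at the third base before it, 165 had a G right after it, and 100 had both, the context that favours initiation. More than 1 exon held 372 of the 745. A repeat was marked in 518 of them (69.5%), against 51.5% of the other non-coding smORFs and 39.7% of all. PhyloCSF, a score above 0 where substitutions between species look like those of a coding frame, reached above 0 at its highest in 25 LINC smORFs (3.36%, against 7.81% and 12.9%), and its mean was above 0 in 4. A score was held for 639 LINC smORFs, 4365 of the other non-coding smORFs and 23607 of all. smORFs without a score stay in the base of these percentages. The RibORF score was between 0.7 and 1.052 (median 0.895, and 0.897 in the other non-coding smORFs). These shares and medians are given side by side and were not tested.

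The annotation placed 720 of the 745 in the non-coding class, 23 in 5′ leaders (uORF), 1 in a 3′ untranslated region and 1 between genes. In GENCODE release 44, 708 lay wholly within exons of their host gene, and 20 had no base in one. Exons of a protein-coding gene on the same strand touched 24 of them. Overlap with another smORF on the same strand touched 589 of the 745 (79.1%), and the 745 formed 297 overlap clusters. Reads in an overlap may count for each smORF there, so counts of smORFs are not counts of independent items. An exon of another gene lay opposite 100 smORFs, and the strand option of the counting is not given in the sources used here.

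The smORFs were spread unevenly over the LINC genes. LINC00910 held 31, LINC00963 30, LINC00339 23, and LINC00667 and LINC01006 20 each, while 52 genes had 1. All 745 together held 84632 counts, and the 10 genes with most counts held 46.2% of them. No count fell in 70 of the 745 in any library, 502 reached 10 counts in at least 1 library, and 97 did so in all 8.

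Library totals over all smORFs ran from 506382 to 884711 counts. The cell type was checked through smORFs in marker genes. Of 26 smORFs in 9 cell cycle genes, 25 were tested and 24 fell on differentiation, with a summed level of 7728 to 8017 CPM (the usual scaling of counts to a common library size) in undifferentiated cells and 670 to 676 CPM in control cells. Of 19 smORFs in 8 enterocyte genes, 14 were tested, 11 rose and 1 fell, with a summed level of 1504 to 1894 CPM and 3773 to 3857 CPM. The lists named 17 cell cycle and 16 enterocyte genes, so the check rests on part of each. Of the enterocyte genes, CDX2 alone had 7 tested smORFs, of which 6 rose, and smORFs of the same gene are not independent. Enterocyte genes without a smORF were ALPI, FABP2, KRT20, LCT, MTTP, SI, SLC15A1 and VIL1. Cell cycle genes without one were AURKB, BUB1, CCNB1, MCM2, MCM3, MCM4, RRM2 and TYMS. No smORF lay in the 4 goblet cell genes listed. Summed over 8 smORFs in 3 fibroblast genes, the level was 5.11 to 31.7 CPM in undifferentiated cells and 0 to 4.5 CPM in the 6 differentiated libraries. Over 7 smORFs in 2 leukocyte genes it lay between 0 and 11.3 CPM in all 8 libraries.

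More LINC smORFs were detected in differentiated than in undifferentiated cells. At least 10 counts were seen for 237 and 183 smORFs in the undifferentiated libraries, 282 and 383 in the control libraries, 282 and 367 after micelles lacking lipid, and 332 and 412 after lipid micelles. The undifferentiated group was the lowest and did not overlap the others, while the 3 differentiated groups overlapped. Because totals differed, every library was thinned to 506382 counts. The detected LINC smORFs were then 151 and 159 in undifferentiated cells against 282 and 257, 256 and 259, and 241 and 273, that is 20.3% and 21.3% of the 745 against 32.3% to 37.9%. Over all 24199 smORFs the thinned shares were 41% and 41.2% against 41% to 43.3%. The share of all smORF counts that fell in LINC smORFs was 1.18% ± 0.0428 (SD, n = 2) in undifferentiated cells, 1.72% ± 0.0291 in control cells, 1.64% ± 0.0208 after micelles lacking lipid and 1.60% ± 0.114 after lipid micelles. The Wilson 95% intervals of the undifferentiated libraries were 1.18% to 1.24% and 1.12% to 1.18%, below those of all 6 differentiated libraries, the lowest of which began at 1.49%, and they cover counting error only. They treat each count as independent, so reads counted for more than 1 overlapping smORF would make them too narrow. As a share of the counts in the non-coding class alone the groups overlapped, with 6.58% and 5.48% in undifferentiated cells against 5.93% to 7.51% in the differentiated libraries. The other smORFs of the non-coding class took 16.4% and 18.8% of counts in undifferentiated cells and 19.5% to 25.0% in the differentiated libraries. With 2 libraries against 2 the smallest two-sided p of an exact permutation test is 0.33, so no test was made of these shares.

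**Figure D1:**
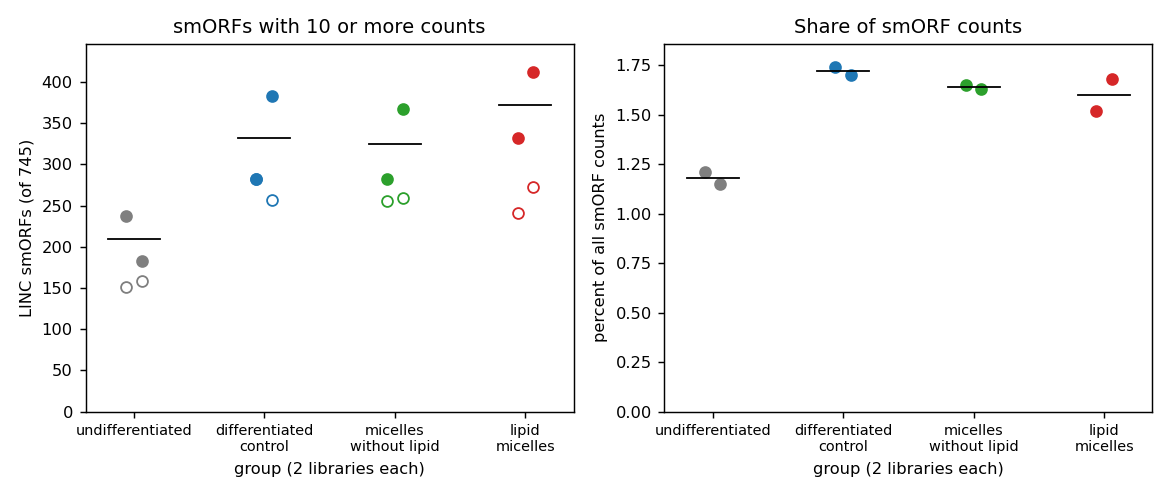
Left, number of the 745 LINC smORFs with 10 or more counts in each library, filled as deposited and open after thinning to 506382 counts. Right, percent of all smORF counts in LINC smORFs. Points are libraries, 2 for each group, and lines are group means of the filled points. The undifferentiated libraries are the lowest in both panels, at 151 to 237 smORFs and at 1.15% to 1.21%.

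The comparison of differentiated control with undifferentiated cells asks which smORFs have more or fewer footprints in the differentiated culture. For its mass spectrometry of Caco-2 cells, the paper kept differentiated plates longer than undifferentiated ones. Those plates, with or without micelles, were then put overnight in medium without serum. If the libraries were made alike, culture time and serum cannot be told apart from differentiation here. Of the 745, 424 in 91 LINC genes had enough counts to be tested by edgeR's quasi-likelihood test. The call required an adjusted p under 0.05 together with a log2 fold change of at least 1 in size. Under this rule 151 LINC smORFs rose, which is 35.6% of those tested, against 17.7% of all 15182 smORFs tested. Another 38 fell (8.96%, against 15.6% of all). In the other smORFs of the non-coding class 36.3% of 2638 rose and 7.70% fell, so both shares of the LINC smORFs lay within 2 percentage points of those of other non-coding RNA. The median log2 fold change was 0.91 over the LINC smORFs tested and 0.01 over all. It stayed at 0.91 with the 9 tested smORFs at 0 in both undifferentiated libraries set to the lowest fold that a floor of 3 counts for each library allows. Altering 9 of 424 values can move a median little. The median was 0.70 without a low-count filter, 0.73 with 10 counts in every library and 0.71 by DESeq2. In the other alternative runs it was 0.84 to 1.0. Over 165 LINC smORFs kept as 1 for each overlap cluster, 56 rose and 21 fell (33.9% and 12.7%, against 19.0% and 15.7% of all 6657). DESeq2 called 84 higher and 23 lower among the 545 LINC smORFs to which it gave an adjusted p. Its share over all smORFs is not given here.

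The smORFs below were named by rule. Each LINC gene was stood for by its called smORF with most counts, and the 10 largest rises and 10 largest falls among these were taken. Other smORFs of lower count can thus have larger fitted log2 fold changes, such as 6.79 in LINC00501 and 6.66 in LINC02541. Where the undifferentiated counts are at or near 0, a fitted value is not a measured fold. Several of the rises were at or near 0 in undifferentiated cells. IEC_18878, of the overlapping LINC00298 and LINC00299, had 0 and 0 counts in undifferentiated cells and 17 and 26 in control cells, and remained at 18 to 25 counts in the 4 micelle libraries. This was at least 6.72-fold higher than the floor of 3 counts for each library (adjusted p = 5.04e-05). IEC_09711 of LINC01146, named HISLA in GENCODE and described as an RNA that stabilizes a hypoxia factor, had 0 and 0 against 8 and 24 counts, at least 4.70-fold higher (adjusted p = 0.000296). IEC_18348 of LINC00330 had 0 and 0 against 10 and 19 counts, at least 4.44-fold higher (adjusted p = 0.000363). These 3 had no count in either undifferentiated library and 8 or more in all 6 differentiated ones.

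IEC_06093 of LINC01291, whose 192-base frame is printed above, had 1 and 0 counts in undifferentiated cells and 30 and 71 in control cells, followed by 44 and 60 and by 38 and 66 with the micelles. The ratio of control to undifferentiated was 95.2, with a 95% counting interval from 16.7 to 3797 (log2 fold change 6.23 ± 0.67 SE, adjusted p = 2.25e-06). IEC_23502 of LINC02518 had 3 and 0 against 19 and 27 counts, a ratio of 14.5 with an interval from 4.65 to 72.7 (adjusted p = 0.000429). In both, the groups did not overlap.

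The highest level after a rise was that of IEC_08214 of LINC02754, a gene on chromosome 11. Undifferentiated libraries held 22 and 20 counts of it, control libraries 315 and 507, those with micelles lacking lipid 352 and 409 and those with lipid micelles 400 and 556. In CPM this was 33.2 and 34.1 against 594 and 637, a log2 fold change of 4.18 ± 0.29 (adjusted p = 2.72e-08). The 6 differentiated libraries lay between 546 and 637 CPM and the undifferentiated libraries far below. All 3 tested smORFs of LINC02754 rose, by 3.14 to 4.28 on the log2 scale.

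The other named rises had a few counts in undifferentiated cells. IEC_20188 of LINC02006, with a 72-base frame, went from 6 and 2 counts to 70 and 78 (log2 fold change 4.11 ± 0.54, adjusted p = 2.18e-05) and had 22 and 80 with lipid micelles. IEC_20637 of LINC02363 went from 5 and 2 to 25 and 80 counts (3.71 ± 0.51, adjusted p = 3.60e-05). IEC_07957 of LINC00992 went from 5 and 6 to 52 and 81 counts (3.47 ± 0.38, adjusted p = 2.54e-06). IEC_05749 of LINC00501 went from 2 and 5 to 30 and 47 counts (3.31 ± 0.48, adjusted p = 5.40e-05). All 10 named rises are listed with ATG.

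Among the falls, 3 smORFs were almost lost in differentiated cells. IEC_23334 of LINC00242, printed above, had 56 and 48 counts in undifferentiated cells, 0 and 1 in control cells, and 1, 0, 0 and 1 with the micelles. The ratio of undifferentiated to control was 110, with an interval from 19.4 to 4399 (log2 fold change -6.49 ± 0.71, adjusted p = 2.58e-06). IEC_10137 of LINC02520 had 48 and 44 against 1 and 0 counts, a ratio of 97.6 with an interval from 17.1 to 3896 (adjusted p = 4.63e-06). IEC_06430 of LINC01564 had 12 and 14 against 0 and 1 counts, a ratio of 27.6 with an interval from 4.53 to 1131 (adjusted p = 0.0059), and it was not called without undifferentiated replicate 2 or without control replicate 1 (log2 fold change -4.30 and -3.84).

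Some of the falls were of frames listed without ATG. IEC_09499 of LINC02413, listed from ACT, had 122 and 83 counts in undifferentiated cells, 3 and 3 in control cells, and 6 to 9 with the micelles (log2 fold change -5.12 ± 0.42, adjusted p = 1.68e-07). IEC_18247 of LINC02693, listed from TCA, had 33 and 41 against 1 and 3 counts (-4.24 ± 0.58, adjusted p = 3.02e-05). IEC_11816 of LINC01357, listed from CCC, had 38 and 20 against 6 and 11 counts (-1.85 ± 0.44, adjusted p = 0.00381), and its highest PhyloCSF value was 2.94. It lies opposite an exon of LINC01356 and was not called without undifferentiated replicate 1 (-1.41). IEC_12086 of LINC01767, listed from CTG, had 17 and 14 against 5 and 4 counts (-1.83 ± 0.58, adjusted p = 0.0203). It was not called by DESeq2 or without any of 3 libraries in turn, undifferentiated replicates 1 and 2 and control replicate 2 (-1.77, -1.86 and -1.35).

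The remaining falls are listed with ATG. IEC_18224 of LINC00479 had 48 and 35 against 5 and 11 counts (log2 fold change -2.46 ± 0.48, adjusted p = 0.000851). IEC_21456 of LINC02387 had 34 and 26 against 7 and 6 counts (-2.26 ± 0.45, adjusted p = 0.00089). IEC_08364 of LINC02904 had 34 and 26 against 6 and 12 counts (-1.83 ± 0.45, adjusted p = 0.00436), in a cluster of 15 overlapping smORFs. In all 10 named falls the undifferentiated libraries lay above the control libraries.

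**Figure D2:**
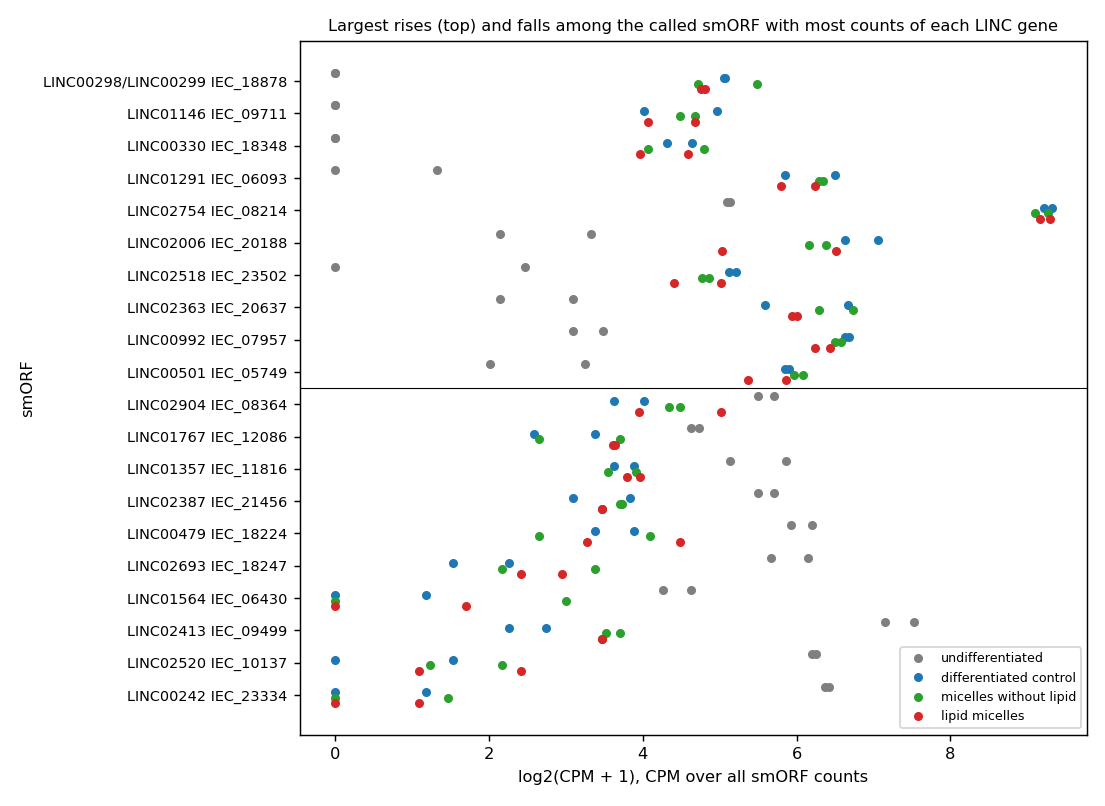
Level, as log2(CPM + 1), of the 10 largest rises (above the line) and the 10 largest falls among the called smORFs with most counts in each LINC gene. Each point is a library, coloured by group. In every smORF shown the 2 undifferentiated libraries lie apart from the 2 control libraries, and IEC_08214 of LINC02754 is the highest, at 546 to 637 CPM in differentiated cells.

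By gene, the directions of the calls are a description only. A gene with 1 called smORF, such as LINC00242 or LINC01291, can show only 1 direction. Genes of other smORF classes are not set beside the LINC genes here. A call was made in 53 of the 91 LINC genes with a tested smORF, and 37 had rises alone, 15 had falls alone and 1 had both. That gene, LINC01278, had 5 overlapping or neighbouring smORFs that rose by 1.28 to 1.51 on the log2 scale and 1 that fell. The smORF that fell, IEC_17150, had 44 and 41 against 22 and 17 counts (log2 fold change -1.17, adjusted p = 0.0246), and it is classed as a uORF and shares an exon with the coding gene SPIN4. Among the 29 genes with 5 or more tested smORFs, 8 had no call, 17 had some smORFs called and 4 had every tested smORF called in the same direction, and in 19 the fold changes of all tested smORFs had the same sign. smORFs of a gene lie in the same RNA and, where they overlap, may share reads, so they are not separate evidence.

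The 4 genes with every tested smORF called were LINC01697, LINC01214, LINC02006 and LINC00467, and all rose. The 9 smORFs of LINC01697 rose by 1.83 to 4.54 on the log2 scale, in 4 overlap clusters. The 5 smORFs of LINC01214 rose by 3.19 to 4.14 and the 5 of LINC02006 by 3.23 to 4.87. The 8 tested smORFs of LINC00467 rose by 2.04 to 2.12, a narrow range in smORFs that open at the same ATG and hold nearly the same counts. LINC02541 came near, with 4 of 5 tested smORFs called. Its IEC_23359 was at 0 and 0 in undifferentiated cells and at 11 and 13 counts in control cells.

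In genes with many smORFs the calls were mixed. Over all smORFs tested 17.7% rose and 15.6% fell, and in the other non-coding smORFs 36.3% and 7.7%. LINC00963 had 17 of 28 tested smORFs called higher with all 28 fold changes above 0, LINC00667 11 of 18, LINC02747 10 of 16, LINC01006 8 of 15 and LINC00847 7 of 13. LINC00910 had 0 of 19 called by edgeR or DESeq2, with log2 fold changes from -0.87 to 1.27 and 1 unadjusted edgeR p under 0.05. The 31 smORFs of LINC00910 lie in 4 overlap clusters, so its 19 tested smORFs are not 19 separate items. LINC02038 had 0 of 10 called by either tool, with log2 fold changes from -0.99 to 0.24 and 2 unadjusted p under 0.05. The genes with falls among these 29 were LINC02904 (5 of 9 tested), LINC02672 (3 of 10) and LINC00668 (2 of 10), beside LINC01278.

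**Figure D3:**
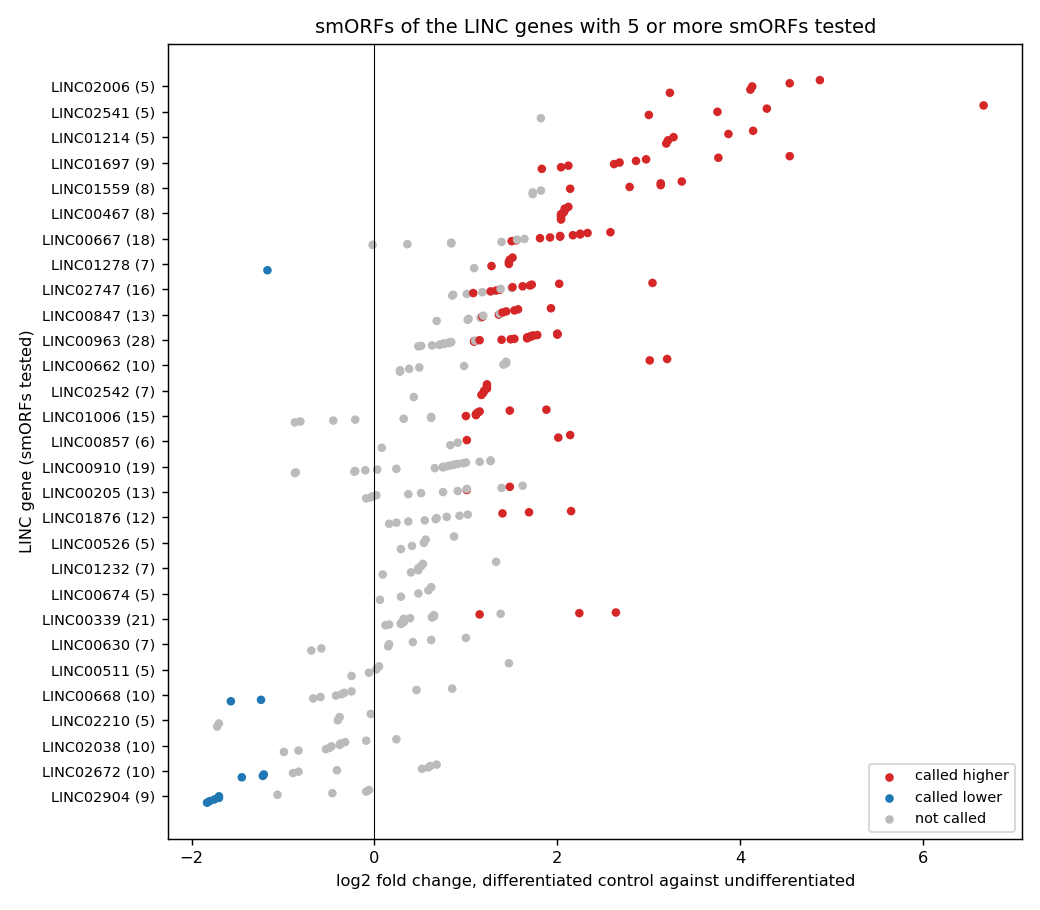
Log2 fold change of each tested smORF, differentiated control against undifferentiated, for the 29 LINC genes with 5 or more smORFs tested, ordered by their median. Each point is a smORF, red where called higher, blue where called lower and grey where not called, and the number of smORFs tested is in parentheses. LINC02006, LINC02541, LINC01214 and LINC01697 lie farthest to the right and LINC02904 farthest to the left.

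A list of RNAs already described to encode a microprotein, drawn up with earlier results of these data known, named 10 genes, of which LINC00467, LINC00665 and LINC00511 had smORFs here. Of their 29 smORFs, 13 were tested and 8 rose, against 17.7% of all smORFs tested and 36.3% of the other non-coding smORFs. The median log2 fold change was 2.04, and all 8 were those of LINC00467. IEC_11905, the LINC00467 smORF with most counts, had 14 and 9 counts in undifferentiated cells, 33 and 74 in control cells, and 34 to 67 with the micelles (log2 fold change 2.08 ± 0.37, adjusted p = 0.000383). The 94-codon frame printed above, IEC_05624, had 14 and 9 against 32 and 75 counts (adjusted p = 0.000428). IEC_19513 of LINC00511 had 19 and 27 counts against 22 and 29 (log2 fold change 0.05 ± 0.36, adjusted p = 0.924), and its highest PhyloCSF value was 4.78. IEC_23546 of LINC00665 had 2 counts in 1 undifferentiated library and 0 elsewhere.

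A list of 14 RNAs associated with colorectal tumours had 7 genes here, with 54 smORFs, 24 tested and 10 higher (median log2 fold change 1.44), to be read against the same 17.7% and 36.3%. None was lower by edgeR, by DESeq2 or at an unadjusted p under 0.05. The 10 were the 8 of LINC00467 and 2 of 10 tested in LINC00662. The LINC00662 smORF with most counts, IEC_22520, was not called (5 and 9 against 6 and 25 counts, adjusted p = 0.21). Neither was IEC_11886 of LINC00858 (7 and 9 against 11 and 15 counts, adjusted p = 0.394), and the smORFs of LINC01234 and LINC00659 had too few counts to test. IEC_20627 of LINC01234 was at 0 in all 8 libraries and IEC_23566 of LINC00659 had 0 to 2 counts. A list of 8 RNAs of endoderm and gut epithelium had 2 genes here, with 14 smORFs, 8 tested and 5 higher, all in LINC01559, again beside 17.7% of all. IEC_15137 of LINC01559 had 12 and 10 counts in undifferentiated cells, 61 and 105 in control cells and 48 to 104 with the micelles (log2 fold change 2.79 ± 0.37, adjusted p = 2.24e-05). IEC_10796 of LINC01082 was at 0 in all 8 libraries.

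The LINC genes with the highest smORF levels included rises, falls and no call. After LINC02754, the highest mean CPM was in IEC_19114 of LINC02038, with 539 and 208 counts in undifferentiated cells and 162 and 282 in control cells (log2 fold change -0.83 ± 0.34, adjusted p = 0.0654). Its undifferentiated libraries lay at 813 and 354 CPM, and its fall rested on replicate 1, since the log2 fold change was -0.10 without replicate 1 and -1.29, then called, without replicate 2. IEC_22221 of LINC00668 had 297 and 262 against 185 and 282 counts (-0.36 ± 0.23, adjusted p = 0.246). IEC_23264 of LINC02747 rose from 49 and 42 to 132 and 188 counts (1.72 ± 0.29, adjusted p = 0.000219). IEC_07883 of LINC00847 rose from 31 and 26 to 86 and 84 counts (1.53 ± 0.30, adjusted p = 0.000905). IEC_23720 of LINC02672, listed from AGT, fell from 177 and 164 to 71 and 82 counts (-1.22 ± 0.26, adjusted p = 0.00168), and was not called without control replicate 2 (-1.0).

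Per base, the densest was IEC_10320 of LINC00667, whose whole frame is 24 bases. Undifferentiated libraries held 127 and 105 counts of it and control libraries 99 and 144 (log2 fold change -0.02 ± 0.28, adjusted p = 0.961), and 63 to 153 with the micelles. Its mean level over the 8 libraries was 654 CPM for each 100 bases, against 230 for IEC_19114 of LINC02038 and 212 for IEC_08214 of LINC02754. It lies opposite an exon of LINC00526. A frame of this length is shorter than a ribosome footprint, so reads counted in it extend beyond it.

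Calls were set beside features of the frames, where 17.7% of all smORFs tested rose and 15.6% fell. Of 270 tested smORFs with ATG, 43% rose and 7.78% fell, of 28 with a codon 1 base from ATG 17.9% and 14.3%, and of 126 with another codon 23.8% and 10.3%. With a marked repeat 36.3% of 295 rose, and without one 34.1% of 129. Of 216 with 1 exon 37.0% rose, and of 208 with more 34.1%. Of the 18 tested smORFs whose highest PhyloCSF value was above 0, 8 rose, all in LINC00467, and 1 fell. Among the 19 tested smORFs that share an exon with a coding gene 0 rose by edgeR or DESeq2 and 1 fell by edgeR, that of LINC01278, while 4 had an unadjusted p under 0.05 with a fold change above 0. Of the other 405 tested, 37.3% rose and 9.14% fell. With an exon of another gene opposite, 31.0% of 71 rose and 2.82% fell, and without one 36.5% of 353 rose and 10.2% fell. None of these splits was tested, and smORFs of the same gene are not independent, so they describe these smORFs only.

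For 11 LINC genes with a call, the nearest coding gene lay within 50 kb and had tested smORFs of its own. LINC00543 lies 5548 bases from CDX2, a homeobox factor of the intestinal epithelium, on chromosome 13. IEC_10064 of LINC00543 rose from 11 and 20 to 34 and 35 counts (log2 fold change 1.07, adjusted p = 0.0415), and 6 of 7 tested smORFs of CDX2 rose, with a median log2 fold change of 3.36. Rises were also called in the neighbours of LINC01277 (AIG1, 2 of 2 tested) and of LINC02323 (ANKRD9, 3 of 3). Over all smORFs tested 17.7% rose and 15.6% fell, and a link between the genes of a pair was not tested. Beside LINC02421, 1 of 2 tested smORFs of DYRK2 rose. Beside the rising LINC00667, 1 of 5 tested smORFs of ZBTB14 fell. In the other 6 pairs 0 of 16 tested smORFs of the coding gene were called by edgeR or DESeq2, and 4 had an unadjusted p under 0.05, with ANXA11, POLE4, JADE2, IRF2, IBTK and SLC16A1 as neighbours. These pairs were described after the calls were known.

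The levels in the micelle libraries were set beside the same undifferentiated libraries that chose the called smORFs, so the counts here are a description and no test. Of the 151 LINC smORFs that rose, 147 had all 4 micelle libraries above both undifferentiated libraries (97.4%, against 96.6% of all 2692 that rose). Of the 38 that fell, 36 had all 4 below (94.7%, against 95% of all 2368). Both shares lay near those of all called smORFs.

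The micelle comparisons ask whether a bile salt micelle, with or without lipid, alters these smORFs in differentiated cells, and all 3 gave no call. With micelles without lipid against control, edgeR called 0 of 424 LINC smORFs (0.0% of all 15182) and DESeq2 called 0, and an unadjusted p under 0.05 was seen in 14 (3.30%, against 4.08% of all). With lipid micelles against control edgeR and DESeq2 called 0 (0.0% of all), and 10 had an unadjusted p under 0.05 (2.36%, against 4.66%). With lipid micelles against micelles without lipid both called 0 (0.0% of all), and 12 had an unadjusted p under 0.05 (2.83%, against 4.11%). The median log2 fold changes of the LINC smORFs were 0.00, -0.04 and -0.02, and the smallest adjusted p values were 0.858, 0.957 and 0.999. The median standard error was 0.46, 0.44 and 0.45 on the log2 scale, so changes of the size of many individual estimates could not be told from 0 at this depth. The first and second comparisons share the control libraries, and the third shares its libraries with both.

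The smORF with the smallest p among increases over control was the same with both micelles. IEC_22298, a 14-codon frame of LINC00668 printed above, had 12 and 28 counts in control cells, 31 and 65 with micelles without lipid and 48 and 60 with lipid micelles. Its log2 fold change over control was 1.26 ± 0.36 (adjusted p = 0.858) and 1.20 ± 0.36 (adjusted p = 0.957), set against the same control libraries. Its counts in undifferentiated cells were 48 and 61, and it had fallen on differentiation by 1.57 on the log2 scale (adjusted p = 0.00253). That fall rests on the same control libraries, so it is not independent of the increases over control. The smallest p among decreases was that of IEC_23445 of LINC01278 with micelles without lipid (21 and 20 against 8 and 10 counts, -1.20 ± 0.45, adjusted p = 1) and of IEC_23453 of LINC02672 with lipid micelles (22 and 24 against 8 and 14 counts, -1.34 ± 0.42, adjusted p = 0.957).

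Between the micelles, IEC_20476 of LINC00491 had 8 and 9 counts without lipid and 20 and 26 with lipid (1.16 ± 0.45, adjusted p = 0.999). IEC_06122 of LINC01697 had 30 and 35 against 21 and 16 counts (-1.06 ± 0.38, adjusted p = 0.999). The largest fold change in size, chosen after its values were seen, was that of IEC_10138 of LINC02520 (4.19, adjusted p = 0.999), which rested on 0 and 0 counts without lipid and 2 and 3 with lipid. None of these passed the test.

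**Figure D4:**
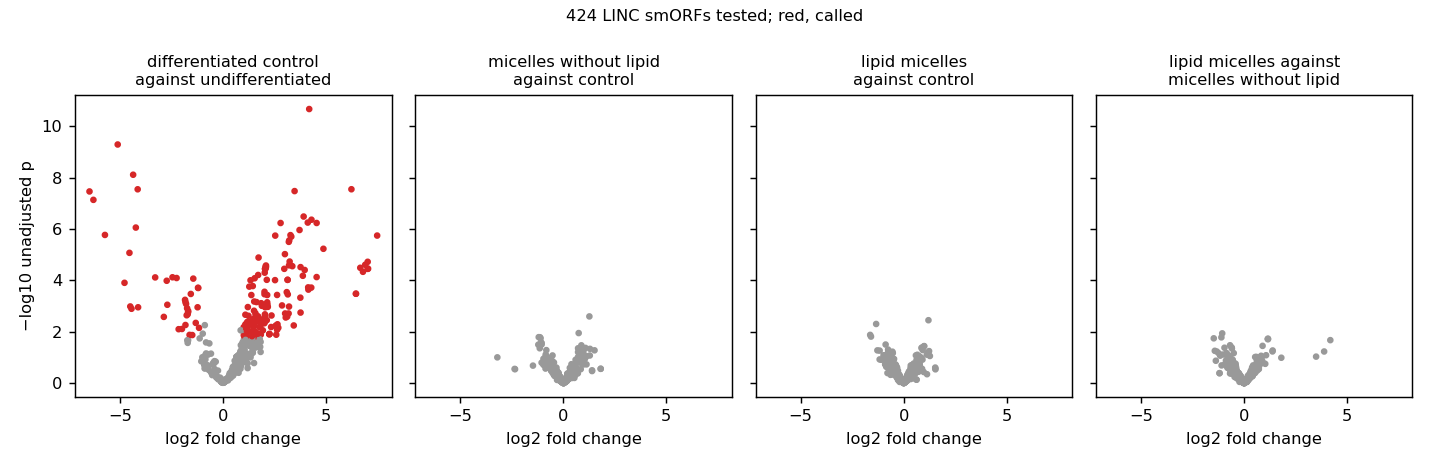
Log2 fold change and −log10 of the unadjusted edgeR p of the 424 LINC smORFs tested, in each of the 4 comparisons on the same axes. Red points were called. The comparison of differentiated control with undifferentiated cells has 189 red points and the 3 micelle comparisons have 0.

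The study singled out 3 smORFs of this set by name, from RNA-seq of other cells or tissue. It reported a rise of IEC_12864 of LINC00545 in CCD18-Co colon fibroblasts given TGFβ. IEC_23729 of LINC01484 rose in ulcerative colitis biopsies. IEC_20333 of LINC00861 fell in blood mononuclear cells given anti-CD3/CD28. In the Caco-2 footprint counts none of the 3 had enough counts to be tested, which does not bear on those RNA changes. IEC_12864 of LINC00545 and IEC_20333 of LINC00861 were at 0 in all 8 libraries, which allows up to 3.37 to 5.66 CPM in a library at 3 counts. IEC_23729 of LINC01484, a 94-codon frame in 2 exons on chromosome 5, had 0 and 1 counts in undifferentiated cells, 2 and 10 in control cells, 0 and 1 after micelles lacking lipid and 5 and 7 after lipid micelles. The ratio of control to undifferentiated counts was 11.3 with an interval from 1.67 to 484, and the 2 control libraries themselves lay at 3.77 and 12.6 CPM.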

How the data were processed

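Ribo-Seq counts of 8 Caco-2 libraries in 4 groups were used, grouped by their labels. Per the labels, reads were aligned to hg38 (GRCh38.p13) with STAR 2.7.11a. The authors assembled transcripts, scored open reading frames with RibORF and counted reads within each smORF with HOMER, and the deposited values are raw counts without normalization. The deposited annotation also held RibORF and PhyloCSF values, each a score given by the authors. Strand and multi-mapping options of the counting are not given in the sources used here. Totals, of 506382 to 884711 counts, are of smORF counts and not of all reads, which limits the precision of low smORFs. No per-library column was left unused.

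The members, gene lists and tests were chosen with earlier results of these data known. All 24199 smORFs were fitted in edgeR 4.0.16 (R 4.3.3) with filterByExpr, TMM scaling, 1 term for each group and the quasi-likelihood test, two-sided, with Benjamini-Hochberg adjustment over the 15182 smORFs tested. Standard errors were derived from the F statistic. The fit was tested on simulated data. CPM used the smORF total times the TMM factor. Named smORFs were, for differentiation, the 10 largest rises and falls among called smORFs (1 for each gene, that with most counts), the 8 genes with the highest smORF level, the smallest p in each direction of each micelle comparison, those the study named, and the top smORF of each listed gene. Ratios with 1 to 3 counts in a group have exact binomial 95% intervals. Host exons came from GENCODE release 44. DESeq2 1.42.0 and other scalings, filters, sample sets and a replicate block were the alternatives. Equally numbered libraries deviated together between the 3 pairs of differentiated groups (correlations 0.198, 0.119 and 0.109 over smORFs), but not with undifferentiated cells (-0.0653 to 0.0208). The main fit held no replicate term, so the micelle comparisons in the results are unpaired. Pairing by number entered only the alternative run with a replicate block. Summaries were made in Python 3.11.15 (scipy 1.17.1, pandas 2.3.3), sequences were read with pysam 0.24.0, and plots drawn with matplotlib 3.10.9.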

Additional observations from a re-analysis of the deposited data

How the results depend on the processing

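The 3 micelle comparisons had 0 LINC smORFs called under each alternative run (other scaling, filters, test, overlap clusters, sample set, replicate block and each library left out). For differentiation, 189 of 424 were called (44.6%, against 33.3% of all 15182 tested). The number was 40 of 97 tested with 10 counts required in every library, a filter that also removes smORFs low in 1 group, 107 by DESeq2, and 77 of 165 tested with 1 smORF for each overlap cluster. It was 187 of 424 with RLE scaling, 242 of 675 without a filter, 170 of 324 with only the 2 groups, and 131 to 220 with each library left out. Apart from the run with 1 smORF for each cluster, shares over all smORFs are not given for these runs. The counts show only how the number of calls depends on the settings. With the replicate block it was 195, and the block changed no call in the micelle comparisons. Detection in undifferentiated, control, micelle without lipid and lipid micelle libraries averaged 210, 332.5, 324.5 and 372 smORFs. At 2 counts this was 517, 577, 583 and 586, and with 1 smORF for each cluster 89.5, 127, 127.5 and 141. The share of counts with 1 for each cluster was 1.68% in control and 1.61% with micelles without lipid, and of non-coding counts alone 6.03%, 7.18%, 6.21% and 6.99%. Near 0, signs were unstable. IEC_10320 of LINC00667 (-0.02) was 0.00 without a filter, 0.06 with 10 counts, 0.05 with the 2 groups and -0.05 to 0.04 with each library left out, and IEC_19513 of LINC00511 (0.05) was -0.25 to 0.44, turning without undifferentiated replicate 1. The cause of these shifts was not tested. Over the 37 values of named smORFs, 503 alternatives kept direction and call, 10 turned the direction, 8 lost a call and 1 gained it, all named here or beside the smORF. Depth limits the low smORFs, since 321 of the 745 could not be tested.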
